A study of Mus musculus with 3 samples.

Results

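Antisense RNAs are transcripts read from the DNA strand opposite a known gene, so their exons lie in, across or beside a gene that is transcribed the other way. Many stay on chromatin close to where they are made. A few are well studied: Airn silences Igf2r and neighbouring imprinted genes on the chromosome copy that makes it, Zfas1 is the host of small nucleolar RNAs, and Tug1 starts beside Morc2a. For most annotated antisense genes of the mouse no role is given in the files used here. Whether such an RNA pairs with, opposes or simply accompanies its sense gene differs from locus to locus.

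The genes described here were those with at least 1 transcript typed antisense, no transcript typed lincRNA or protein_coding, and at least 5 TPM (a transcript's share of the library, corrected for length) in the gene table of each of the 3 libraries. Of 3067 antisense genes, 196 met the level (6.39%, beside 14.3% of all 55536 annotated genes and 29.7% of protein-coding genes). Snhg14 and Kcnq1ot1 were left out by name, which gave 194 well-expressed antisense genes and 2873 other antisense genes. They were chosen by TPM in these same libraries, so their levels are given as a description and were not tested. For 184 of them every transcript was typed antisense, 7 also had a retained-intron transcript, 2 a processed transcript, and 1, Zeb2os, a miscellaneous RNA.

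The libraries were ribosomal RNA-depleted total RNA from the chromatin fraction of primary macrophages, which were derived from bone marrow of C57BL/6J mice. All were 1 group: the cells had been given lipid A, the Toll-like receptor 4 ligand of bacterial lipopolysaccharide, at 100 ng/ml for 12 h, kept without it for 12 h, then given it again at 100 ng/ml for 30 min. There were 3 biological replicates, from separate biosamples that share 1 donor identifier, and age and sex are marked as not collected. RNA input was 1 µg in replicate 1, 250 ng in replicate 2 and 500 ng in replicate 3, so input and replicate cannot be told apart. No untreated or singly treated cells were analysed here, so the levels stand without a comparison between treatments.

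Total expected counts were 12532722, 18395358 and 18237730 in replicates 1, 2 and 3. The 194 antisense genes took 0.633%, 0.451% and 0.47% of the counts in named genes. All 12 macrophage markers, among them Adgre1, Csf1r and Lyz2, passed the test of a level above 1 TPM that is described with the sense partners. Of the markers of other cell types Cd4 passed it, at 7.4, 6.54 and 8.05 TPM, and Pecam1 did not, at 1.14, 2.08 and 1.55 TPM. Elane, Mpo, S100a8, Ly6g, Cd3e, Hbb-bs and Epcam were listed at 0 in each library. As the samples are bulk RNA, fewer cells of a type and less RNA per cell cannot be told apart.

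The sources used here do not state whether counting used strand. Without strand, reads of an antisense RNA and reads of the unspliced sense RNA over the same bases cannot be told apart, and chromatin RNA holds much unspliced RNA. How far the antisense genes lie inside other genes is therefore given for the set, and for some of the named genes. Of the 194, 146 (75.3%) had over 50% of their exonic bases in introns of genes on the other strand, against 1530 of the 2873 other antisense genes (53.3%) and 731 of the 1245 others with a mean over 0.1 TPM (58.7%). For 68 genes (35.1%) every exonic base lay in such introns, against 752 others (26.2%). Only 25 of the 194 (12.9%) had over 50% of their exonic bases outside any other gene, against 796 others (27.7%).

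**Figure D1:**
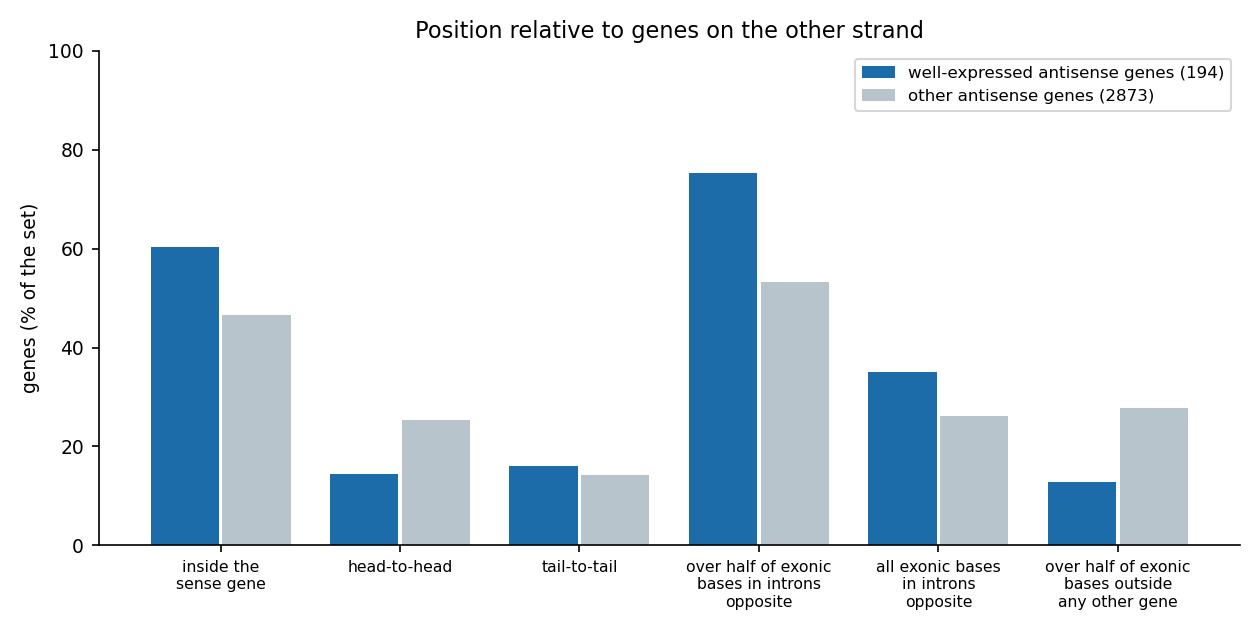
Share of genes (percent, vertical axis) with each position relative to genes on the other strand, for the 194 well-expressed antisense genes (blue, left bar) and the 2873 other antisense genes (grey, right bar). Over 50% of exonic bases lay in opposite-strand introns in 75.3% of the first set and 53.3% of the second.

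Each antisense gene was paired with the protein-coding gene on the other strand that it overlaps most, or, with no overlap, with one whose start lies within 1 kb. This sense partner was found for 185 of the 194. Of these, 117 (60.3% of the 194) lay inside the sense gene with starts more than 1 kb apart, against 1340 others (46.6%). Another 28 (14.4%) were head-to-head, with starts within 1 kb, against 727 others (25.3%). This class was set first, from any protein-coding start of the partner, so it can hold genes that lie inside the sense gene. A further 31 (16%) met the sense gene tail-to-tail, against 409 others (14.2%). The remaining 9 with a partner either began inside the sense gene and ran out past its start (6 genes) or spanned it whole (3 genes). Counting the start of any protein-coding gene on the other strand rather than the partner alone, 50 of the 194 (25.8%) began within 1 kb of one, against 956 others (33.3%). Annotated exonic length had a median of 1574 bases in the 194 and 928 in the others. Most of the others averaged 0.1 TPM or less, and these positions and lengths are not set here against the rest alone. Antisense genes annotated with single-exon transcripts only were few in both sets, 15 (7.73%) and 172 (5.99%).

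RefSeq promoter windows, which run from 250 bases before to 50 after a start, matched 70 of the 194 by symbol. For 49 of them the RefSeq start lay within 100 bases of an annotated start, and these were compared. The number of CG dinucleotides in each window was set against the number given by its C and G content, a ratio that is high in CpG islands. It exceeded 0.6 in 18 of the 49 windows (36.7%), near the 36.4% of all 27025 RefSeq promoters. By position the windows were few, and the differences were not tested. Position was taken to the partner alone, so a tail-to-tail window may lie near the start of another gene on the other strand. Over the 10 head-to-head windows the median ratio was 0.605, and over the 13 tail-to-tail windows it was 0.861. Over the 21 windows of genes inside their sense gene it was 0.144, beside 0.463 over the 49 and 0.389 over all promoters. The ratio exceeded 0.6 in 2 of 21 inside, 5 of 10 head-to-head and 11 of 13 tail-to-tail windows, and in none of the 3 that ran out past the sense gene's start or the 2 without a partner.

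The 6 windows below show both kinds, with every CG in capitals. The first 3 are CG-rich: Zfas1 (chr2:167062684-167062983, plus strand), Tug1 (chr11:3648765-3649064, minus strand) and Rab10os (chr12:3235541-3235840, plus strand) hold 47, 37 and 39 CG. The last 3 are CG-poor: F630028O10Rik (chrX:96239676-96239975, plus strand), Gm26740 (chr10:22302789-22303088, minus strand) and Dnmt3aos (chr12:3862195-3862494, minus strand) hold 2, 1 and 2. All are RefSeq sequences of GRCm38.p6, written 5′ to 3′ on the strand of the antisense gene.
Zfas1: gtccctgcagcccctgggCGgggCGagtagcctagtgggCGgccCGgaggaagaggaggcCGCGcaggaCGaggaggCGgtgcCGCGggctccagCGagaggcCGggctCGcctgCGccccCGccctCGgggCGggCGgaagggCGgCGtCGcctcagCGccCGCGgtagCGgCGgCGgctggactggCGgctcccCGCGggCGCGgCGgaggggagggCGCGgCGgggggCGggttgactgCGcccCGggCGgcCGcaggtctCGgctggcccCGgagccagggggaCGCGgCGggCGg
Tug1: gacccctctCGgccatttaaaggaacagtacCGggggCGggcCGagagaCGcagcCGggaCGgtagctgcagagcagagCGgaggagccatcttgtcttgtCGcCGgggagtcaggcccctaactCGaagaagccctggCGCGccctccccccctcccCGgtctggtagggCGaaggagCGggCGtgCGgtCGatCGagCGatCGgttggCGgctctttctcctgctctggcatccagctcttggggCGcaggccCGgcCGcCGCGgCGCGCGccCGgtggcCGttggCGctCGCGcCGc
Rab10os: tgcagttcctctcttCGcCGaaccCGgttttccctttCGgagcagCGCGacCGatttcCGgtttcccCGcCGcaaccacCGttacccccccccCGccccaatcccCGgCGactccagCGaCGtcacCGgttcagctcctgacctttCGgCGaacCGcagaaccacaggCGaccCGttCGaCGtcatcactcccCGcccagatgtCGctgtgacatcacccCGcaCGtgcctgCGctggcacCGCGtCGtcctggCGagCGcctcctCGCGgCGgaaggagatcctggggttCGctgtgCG
F630028O10Rik: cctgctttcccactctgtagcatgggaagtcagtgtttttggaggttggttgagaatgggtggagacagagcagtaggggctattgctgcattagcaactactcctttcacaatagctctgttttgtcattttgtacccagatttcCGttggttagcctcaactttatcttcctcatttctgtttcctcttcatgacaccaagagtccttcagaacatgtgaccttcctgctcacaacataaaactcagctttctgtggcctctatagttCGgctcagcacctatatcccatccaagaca
Gm26740: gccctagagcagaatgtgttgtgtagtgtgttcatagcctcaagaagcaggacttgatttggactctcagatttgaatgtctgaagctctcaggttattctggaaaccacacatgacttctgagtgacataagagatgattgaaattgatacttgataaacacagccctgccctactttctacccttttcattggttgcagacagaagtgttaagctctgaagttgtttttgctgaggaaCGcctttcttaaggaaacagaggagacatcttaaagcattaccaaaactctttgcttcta
Dnmt3aos: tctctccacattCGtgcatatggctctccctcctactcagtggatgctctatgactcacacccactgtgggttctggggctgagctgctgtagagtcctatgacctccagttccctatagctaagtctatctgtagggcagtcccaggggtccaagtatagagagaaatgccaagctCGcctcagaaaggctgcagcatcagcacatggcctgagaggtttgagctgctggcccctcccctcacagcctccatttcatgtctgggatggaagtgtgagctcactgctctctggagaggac

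Motif letters were searched on both strands of the 49 windows. The interferon response element-like letters GAAANNGAA were in 4 windows, among them those of Rab10os and F630028O10Rik (8.16%, against 8.57% of all promoters), and the NF-kB-like letters GGGANTTCC in 2, those of 1700095J12Rik and 1700099I09Rik (4.08%, against 1.69%). The AP-1-like letters TGANTCA were in 5 windows, among them that of Dnmt3aos (10.2%, against 7.93%), and the ETS-like letters GGAAGT in 13 (26.5%, against 24.1%). The TATA box TATAAA was in 4 windows, Airn's included (8.16%, against 14.2%), and CCAAT in 20 (40.8%, against 37.9%). The motifs were not checked for overlap with one another, and such matches describe letters, not bound sites.

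Levels were uneven. The median mean was 11.7 TPM over the 194 antisense genes and 0.023 TPM over the others, which the 5 TPM rule fixes. Of the 194, 6 averaged at least 100 TPM, 15 at least 50 TPM and 55 at least 20 TPM, while 70 averaged under 10 TPM. The 12 highest held 32.2% of the summed TPM of all 194. Every chromosome except Y carried some, from 15 each on chromosomes 1, 6 and 8 to 2 each on 18 and X. Across the 194, log2 TPM correlated between libraries with Pearson's r of 0.887 to 0.94, a description over genes that share their annotation and length.

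The highest antisense gene in the gene table was AC119228.1, which stood behind Zeb2os, Gm28913 and Gm20234 in the second transcript table. It lies inside Cd274, the gene of the T cell inhibitory ligand PD-L1 (chromosome 19, 29373417 to 29384471, minus strand, mm10). It had 377.87, 195.68 and 253.46 TPM in replicates 1, 2 and 3, against 379.12, 232.21 and 331.76 TPM for Cd274. Both were highest in replicate 1 and lowest in replicate 2, and their ranges overlapped. With 89.2% of its 4725 exonic bases in Cd274 introns, and counts of 11152.8 to 15029.2 per library, it also had the most counts of the 194 in every library.

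Next came Gm28913, inside Ikbke, which codes for a kinase that activates interferon regulatory factors (chromosome 1, 131263330 to 131266749, plus strand). It had 201.15, 154.33 and 143.26 TPM, against 1243.67, 1172.92 and 1046.22 TPM for Ikbke. A second antisense gene inside Ikbke, Gm28914 (chromosome 1, 131259507 to 131260553), had 68.8, 59.17 and 49.07 TPM. All 3 genes ranked the libraries alike, and both antisense genes stayed under Ikbke in every library. Gm28913 has only 364 exonic bases, so its high TPM rested on 278 to 335 counts a library.

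Gm40578 meets Tnfaip2, a gene first known for its induction by tumour necrosis factor, tail-to-tail (chromosome 12, 111450405 to 111500840, minus strand). Its levels were 152.69, 84.06 and 196.84 TPM, against 1262.83, 489.81 and 1240.31 TPM for Tnfaip2. Replicate 2 was the low library for both. Gm37787, inside the immune receptor gene Slamf7 (chromosome 1, 171634879 to 171636022, plus strand), had 159.41, 48.18 and 92.61 TPM, against 416.9, 186.18 and 336.83 TPM for Slamf7. Here too both were highest in replicate 1 and lowest in replicate 2. In Gm37787, 72% of exonic bases face Slamf7 exons.

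Gm7480 lies wholly in an intron of Lrmda (chromosome 14, 22032086 to 22036103, minus strand) and had 160.08, 88.41 and 81.74 TPM, against 112.71, 115.56 and 108.08 TPM for Lrmda. It stood above Lrmda in replicate 1 and below it in replicates 2 and 3, while Lrmda itself hardly varied. Lrmda carried 2 more of the 194: 4930405A10Rik had 50.69, 39.99 and 48.96 TPM and Gm10248 had 7.18, 6.73 and 6.92 TPM. The 3 antisense genes of Lrmda thus spanned a wide range of levels. Arhgap10 carried 4, the most of any partner: 0610038B21Rik had 23.03, 22.16 and 16.99 TPM, and Gm45285, Gm45406 and 4933421D24Rik, all wholly intronic to it, lay between 9.46 and 15.64 TPM. The sense gene had 112.55, 113.62 and 109.78 TPM. Another 12 partners carried 2 each, among them Irf2, Sp140, Etv6, Cdk6 and Ikbke.

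Zeb2os starts 26 bases from a start of Zeb2, a transcription factor gene of macrophage identity (chromosome 2, 45110707 to 45114087, plus strand). It had 129.73, 76.77 and 100.7 TPM, against 1596.21, 1040.56 and 1278.49 TPM for Zeb2. The pair kept the same order of libraries, and their log2 ratio was -3.68 ± 0.07 (SD, n = 3). Zeb2os also differed most of the 12 between the deposited quantifications, as given further on.

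The other 5 of the 12 highest were head-to-head or tail-to-tail with a sense gene or had none. Gm16094 (chromosome 1, 85599286 to 85599839, plus strand), head-to-head with the interferon-induced nuclear body gene Sp110 and with no exonic base in another gene, had 124.39, 82.66 and 70.07 TPM, against 375.69, 319.45 and 261.76 TPM for Sp110. Zfas1 (chromosome 2, 167062934 to 167065862, plus strand), whose CG-rich start window is printed above, had 96.74, 87.17 and 76.84 TPM, against 204.68, 192.5 and 152.7 TPM for Znfx1, an antiviral helicase gene. In both pairs antisense and sense genes ranked the libraries alike, with the antisense gene lower each time. F630028O10Rik (chromosome X, 96239926 to 96243636, plus strand), with 96.7% of its exonic bases outside any other gene and no sense partner, had 91.46, 74.1 and 69.31 TPM. BE692007 (chromosome 19, 11470166 to 11484578, minus strand), tail-to-tail with the membrane protein gene Ms4a6c, had 88.34, 66.66 and 51.47 TPM, against 180.9, 118.45 and 107.53 TPM. The order of libraries was again shared. 4933423P22Rik (chromosome 2, 90479236 to 90488425, plus strand) starts 66 bases from an annotated start of Ptprj, a receptor tyrosine phosphatase gene. It had 89.98, 73.01 and 87.85 TPM, against 70.39, 68.27 and 70.29 TPM for Ptprj. Among the 12 highest it alone exceeded its partner in each library, and every exonic base of it lies in an intron of the other strand.

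**Figure D2:**
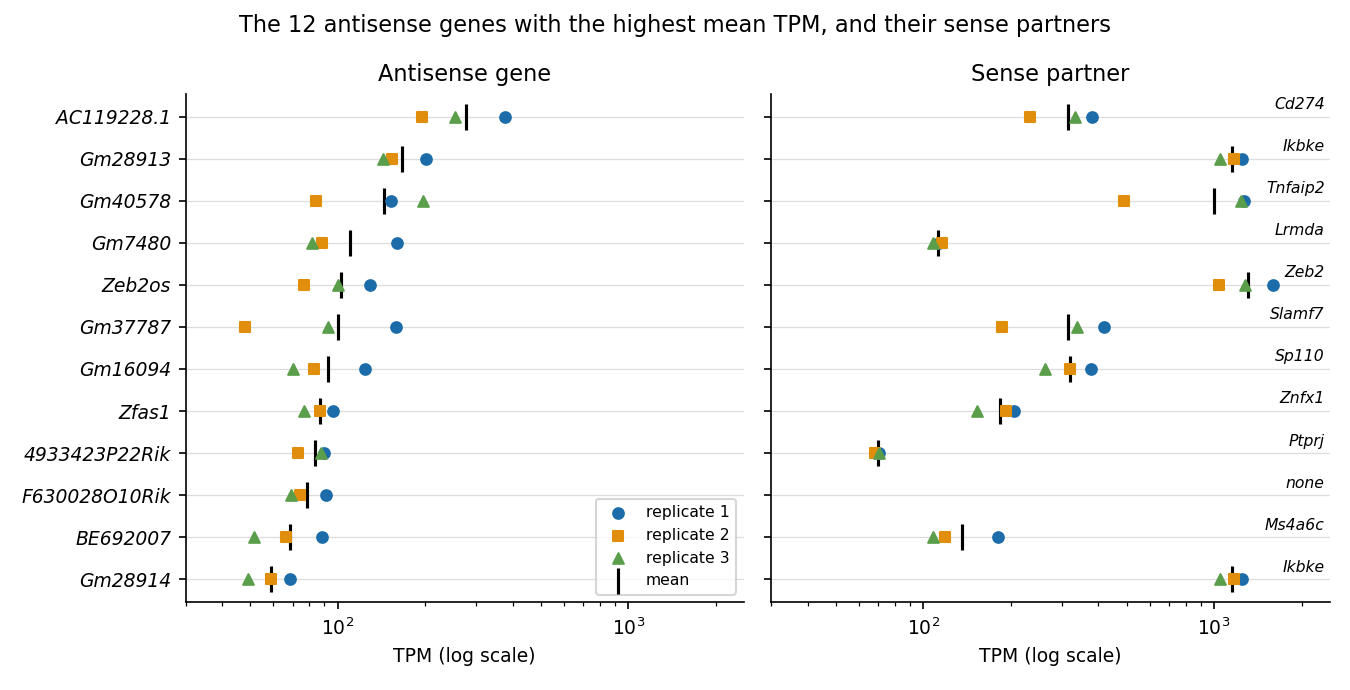
TPM on a log scale (horizontal axis) of the 12 antisense genes with the highest mean (left panel) and of the sense partner of each, named at the right edge (right panel). Points are single libraries and the black bar is their mean; AC119228.1 is highest in the gene table at 195.68 to 377.87 TPM, close to Cd274 at 232.21 to 379.12 TPM.

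The sense partners of these genes were nearly all transcribed. Of 168 distinct partners, 159 (94.6%) were above 1 TPM (limma on log2(TPM + 0.1), one-sided against 1 TPM, Benjamini-Hochberg adjusted p under 0.05). Of all 24180 genes tested, 12367 (51.1%) were, and of 15120 protein-coding genes 9337 (61.8%). Of the 1854 tested partners of the other antisense genes, 1059 (57.1%) were. The share for the 168 is a count beside these backgrounds, and the difference was not tested. As the strand of counting is not stated, reads of a partner may have helped its antisense gene reach 5 TPM. The rule may thus have set part of this share. Partner levels had a median of 46.8 TPM over the 168, with the middle 50% between 22.1 and 102 TPM.

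The 9 partners not called above 1 TPM faced antisense genes that averaged 7.49 to 47.6 TPM. 1700019L13Rik, inside the fractalkine receptor gene Cx3cr1 (chromosome 9, 119983146 to 119988092, plus strand), had 12.05, 5.77 and 16.05 TPM, against 0.09, 0 and 0.02 TPM for Cx3cr1. Gm26740, inside Raet1e, a gene of a ligand for the activating receptor NKG2D (chromosome 10, 22187013 to 22302835, minus strand), had 46.04, 48.45 and 48.2 TPM, against 1.1, 0.44 and 0.88 TPM. Gm17056, head-to-head with Lsmem1 (chromosome 12, 40198656 to 40201105, plus strand), had 35.45, 11.25 and 52.51 TPM, against 0, 0 and 0.07 TPM. In all 3 pairs the lowest antisense library was far above the highest sense library. 9530082P21Rik, which begins inside the Wnt co-receptor gene Kremen2 and runs out past its start, had 7.26, 9.63 and 5.59 TPM, against 0.05, 0 and 0 TPM. The other 5 of these partners, Palld, Gm49354, Alyref2, Loxl2 and 1700011L22Rik, averaged 0.34 to 1.23 TPM beside antisense genes at 7.67 to 14.2 TPM. Gm26740 has the CG-poor start window printed above, and every exonic base of it lies in introns of the other strand.

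Most antisense genes were lower than their partner. On the log2(TPM + 0.1) scale the median ratio of antisense to sense was -1.70, -1.81 and -1.84 in replicates 1, 2 and 3 (median of the per-gene means -1.81 over 185 pairs, SD over libraries 0.07). The antisense gene was below its partner in every library in 154 pairs and above it in every library in 25, and the rule keeps every antisense gene at 5 TPM or more. Among the 21 paired genes with over 50% of exonic bases outside any other gene the median ratio was -0.62, and 7 stood above the partner in every library. Among the 146 mostly in opposite-strand introns it was -1.94, with 16 above. The 21 pairs mostly outside other genes include Tug1, at 47.21, 47.17 and 52.22 TPM, against 27.2, 37.76 and 33.59 TPM for the ATPase gene Morc2a. Airn had 36.13, 27.18 and 26.49 TPM, against 15.84, 16.98 and 16.62 TPM for Igf2r. Both RNAs exceeded their partner in each library without overlap. Gt(ROSA)26Sor, the locus widely used for knock-in transgenes, had 18.83, 18.1 and 22.9 TPM, against 23.74, 31.49 and 22.85 TPM for Thumpd3, which it meets tail-to-tail, and those ranges overlapped.

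At the other end, the 4 lowest ratios belonged to antisense genes of 573 to 1385 exonic bases in or beside sense genes that averaged 175 to 439 TPM. 4930403D09Rik, inside Dock2, a Rac activator of leukocytes, had 8.2, 5.99 and 9.36 TPM, against 348.66, 364.01 and 341.21 TPM for Dock2 (log2 ratio -5.49 ± 0.37, SD, n = 3). Gm15701, head-to-head with Rasa4, a Ras GTPase-activating protein gene, had 15.86, 7.73 and 9.62 TPM, against 462.66, 462.73 and 392.98 TPM. Dnmt3aos, inside the DNA methyltransferase gene Dnmt3a, had 7.53, 8.45 and 6.54 TPM, against 196.25, 167.35 and 161.82 TPM. None of these 3 antisense genes ranked the libraries as its partner did. Gm44649, inside the scaffold gene Iqgap1, had 18.37, 10.44 and 15.12 TPM, against 406.73, 243.25 and 337.36 TPM, with both highest in replicate 1 and lowest in replicate 2 (log2 ratio -4.49 ± 0.04, SD, n = 3). These ratios are those of the gene table. In the second transcript table the 4 antisense genes were higher, at means of 19, 33.6, 14.7 and 96.4 TPM in the order named. The last value, for Gm44649, stood beside a gene-table mean of 14.6 TPM.

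**Figure D3:**
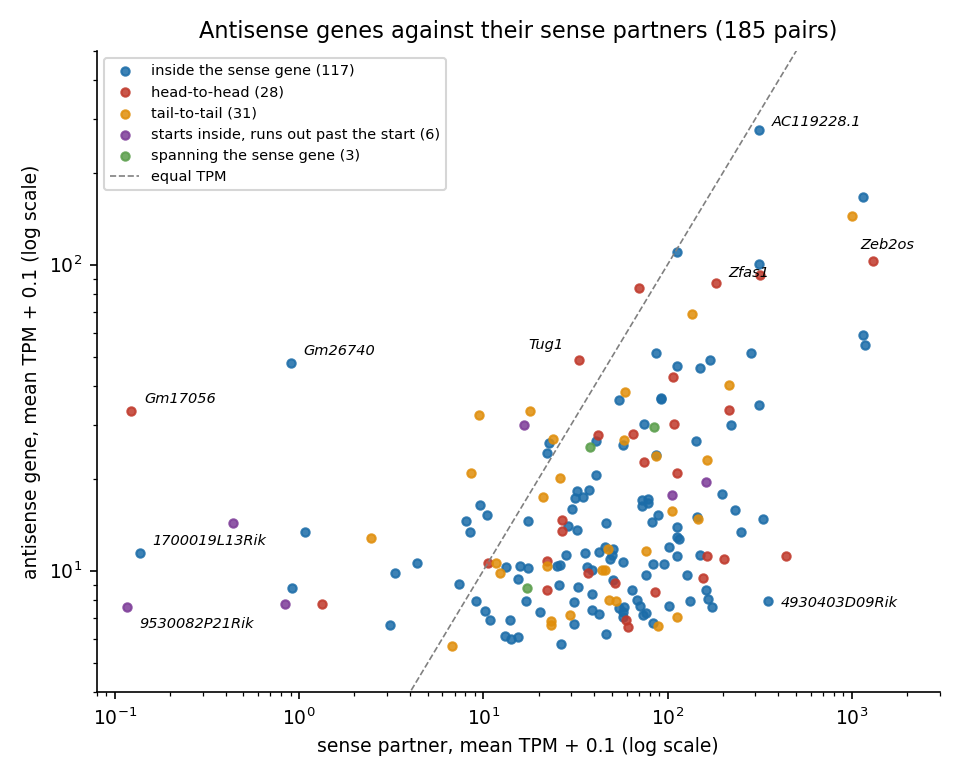
Mean TPM + 0.1 of the antisense gene (vertical, log scale) against that of its sense partner (horizontal, log scale) for 185 pairs, coloured by position. The dashed line marks equal TPM; 154 antisense genes were below their partner in every library, and Gm17056, 1700019L13Rik and 9530082P21Rik lie far left with partners near 0.

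Of 259 genes in the 6 chosen lists, 8 (3.09%) had 1 or more of the 194 as an antisense gene, beside 168 of 22028 protein-coding genes (0.763%) and 159 of the 9337 above 1 TPM (1.7%). The difference was not tested. Of 48 Toll-like receptor and NF-kB genes, 6 had any antisense gene as annotated and 3 had 1 of the 194: Ikbke, Irak2 and Irak3. Gm43964, in an intron of the signalling kinase gene Irak2, had 14.11, 14.73 and 6.76 TPM, against 123.87, 73.55 and 109.32 TPM. Its counts were 15, 16 and 8, the lowest of the 194. Gm47009, inside Irak3, whose product restrains Toll-like receptor signalling, had 5.59, 5.85 and 5.53 TPM, against 30.93, 21.09 and 27.14 TPM. Its level was even across libraries while Irak3 was not.

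Of 51 interferon genes 4 had any antisense gene and only Irf2, a transcription factor that opposes Irf1, had any of the 194. Its Gm45479 had 49.48, 49.79 and 38.39 TPM and its Gm31172 had 10.41, 13.76 and 9.21 TPM, against 181.23, 135.94 and 133.77 TPM for Irf2. Irf2 was highest in replicate 1, while Gm45479 was level in replicates 1 and 2 and Gm31172 was highest in replicate 2. Of 39 macrophage factor genes 7 had any antisense gene and Zeb2 alone had one of the 194. Of 56 RNA-processing and chromatin genes 11 had any and 3 had one of the 194. Kdm6bos, inside the histone H3 lysine 27 demethylase gene Kdm6b, had 11.13, 8.73 and 12.57 TPM, against 43.85, 35.09 and 67.43 TPM. Gm37850, inside the splicing regulator gene Rbm5, had 15.83, 18.71 and 18.75 TPM, against 215.63, 174.79 and 204.5 TPM. AC061963.1, head-to-head with the histone H3 lysine 4 methyltransferase gene Kmt2a, had 7.11, 8.06 and 5.2 TPM, against 60.56, 61.93 and 56.13 TPM. Of these only Kdm6bos and AC061963.1 kept their partner's order of libraries. No cytokine gene of 33 and no immediate early gene of 32 had one of the 194, and 3 of each list had an annotated antisense gene. At a background of 0.763% to 1.7%, a count of 0 in lists of this size does not set them apart. All genes of the Toll-like receptor and chromatin lists, 50 of 51 interferon, 36 of 39 factor, 23 of 33 cytokine and 26 of 31 tested immediate early genes were above 1 TPM by the same test.

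Of 267 antisense genes with an opposite-strand name (a sense symbol followed by os), 143 were tested, 50 were above 1 TPM, 13 were among the 194 and 124 were listed at 0 in all libraries. Of all 3067 antisense genes 194 were kept by the rule, and 581 of 1709 tested (34%) were above 1 TPM. The rule held the 13 and the 194 at 5 TPM or more in each library, so it largely set their part of these calls. Aknaos, in Akna, had 32.65, 14.05 and 24.57 TPM, against 86.71, 74.99 and 98.81 TPM for Akna. Both were lowest in replicate 2. Peak1os had 28.55, 10.86 and 12.66 TPM, against 38.42, 29.74 and 35.67 TPM for the pseudokinase gene Peak1. Zmiz1os1 had 15.82, 24.07 and 12.93 TPM, against 108.73, 108.31 and 101.18 TPM for the transcriptional coactivator gene Zmiz1. It was highest in replicate 2, where 85 of the 194 were lowest.

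Rab10os, tail-to-tail with the small GTPase gene Rab10, had 15.27, 17.21 and 19.34 TPM, against 22.95, 19.62 and 20.04 TPM for Rab10. Every Rab10os library was below every Rab10 library, by a small margin in replicate 3. Mypopos had 10.96, 9.48 and 11.12 TPM, against 3.47, 5.24 and 4.1 TPM for Mypop. It was the only one of the 13 that exceeded its sense partner in every library. Brip1os spans Ints2, an Integrator subunit gene, rather than the gene it is named after, and had 9.04, 8.58 and 8.46 TPM, against 14.65, 19.03 and 18.12 TPM for Ints2. Tmcc3os, Adap2os, Atxn7l1os1 and Galnt6os averaged 15.5, 14.9, 7.07 and 6 TPM, each below its partner.

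The SD of log2 CPM (a read share not corrected for length, scaled by TMM library factors) had a median of 0.289 over 193 of the 194, 0.342 over 475 other antisense genes and 0.244 over all 14140 genes with enough counts. Without replicate 1 the medians were 0.187, 0.263 and 0.183, so the antisense genes then lay close to all genes. They stayed above all genes without replicate 2 (0.238, 0.2525 and 0.173) and without replicate 3 (0.303, 0.3295 and 0.23). The tagwise biological coefficient of variation had a median of 0.216 over the 193 and 0.21 over all genes. Gm43964 had too few counts to enter. Gm17056 (35.45, 11.25 and 52.51 TPM), 4930430E12Rik (35.78, 9.88 and 18.35 TPM), Gm37787 and Gm15629 (16.86, 5.87 and 17.14 TPM) had the largest, 0.97 to 1.18. All 4 were lowest in replicate 2. Gm11455 (6.09, 6.97 and 6.75 TPM), Gm16185 (29.18, 30.12 and 30.56 TPM), Gm17227 (8.11, 8.52 and 8.28 TPM) and A930001M01Rik (17.37, 19.48 and 17.91 TPM) had the smallest, 0.02 to 0.03. In 13.9% of the 194 the highest library had over 2-fold the TPM of the lowest, and in 2.06% over 3-fold.

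The antisense genes stood higher in replicate 1. Their median log2 CPM lay 0.31 above the mean of the other libraries in replicate 1, 0.20 below it in replicate 2 and 0.10 below it in replicate 3, while the median over all 14140 genes lay within 0.013 of it each time. For other antisense genes the medians were 0.15, -0.003 and -0.17, and for protein-coding genes -0.05, 0.04 and 0.03. Of the 194, 104 were highest in replicate 1 by TPM, 48 in replicate 2 and 42 in replicate 3. In the 145 genes mostly in opposite-strand introns the replicate 1 median was 0.36, and in the 25 mostly outside other genes it was 0.18. Replicate 1 also had the largest RNA input and the lowest total count, and their part in this was not tested.

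Antisense genes and their partners tended to deviate together. The deviation of each library from the mean of the other 2, taken for the antisense gene and for its partner, correlated over 178 pairs with Pearson's r of 0.51 in replicate 1, 0.63 in replicate 2 and 0.47 in replicate 3 (Spearman's coefficient 0.49, 0.55 and 0.41). Antisense and sense deviations shared a sign in 114, 124 and 110 of these 178 pairs (64%, 69.7% and 61.8%). Over 400 pairs of other antisense genes with at least 10 counts the shares were 61.5%, 67% and 52.75%. In the 19 pairs mostly outside other genes the share was 57.9% in each library. Over 112 pairs with the antisense gene inside r was 0.61, 0.69 and 0.43. Over 27 head-to-head pairs it was 0.30, 0.40 and 0.22, over 31 tail-to-tail pairs 0.54, 0.63 and 0.66, and over 400 pairs of other antisense genes with at least 10 counts 0.29, 0.48 and 0.34. In the 19 pairs mostly outside other genes it was 0.59, 0.66 and 0.42, with Spearman's coefficient at 0.52, 0.32 and 0.11. These are descriptions across pairs that share libraries, loci and possibly reads, and the deviations in the 3 libraries are not independent of one another. Across the 185 pairs the level of the antisense gene correlated with that of its partner with r of 0.37 (Spearman's coefficient 0.36, log2 scale), a range the 5 TPM rule narrows.

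**Figure D4:**
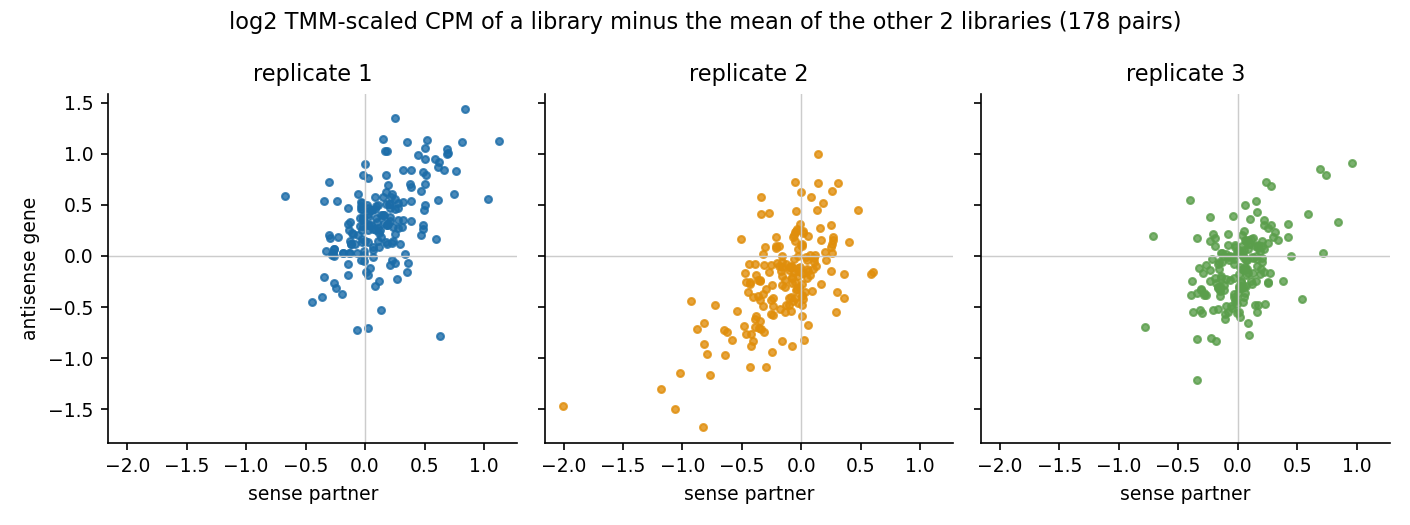
Deviation of the antisense gene (vertical) against that of its sense partner (horizontal) in each replicate, as log2 TMM-scaled CPM of the library minus the mean of the other 2 libraries, for 178 pairs. Points scatter broadly around a rising trend in each panel (r of 0.51, 0.63 and 0.47). Most antisense genes lie above 0 in replicate 1 and below 0 in replicate 2.

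Levels of many of these genes differed between the deposited quantifications, which were made from the same reads. In the second transcript table, summed per gene, 188 of the 194 were at 5 TPM or more in each library. The log2 TPM of the tables correlated with r of 0.68 (Spearman's coefficient 0.68, 194 genes). The second table was over 2-fold higher for 57 and under 50% of the gene table for 2. The 57 had a median exonic length of 885 bases and lowest counts with a median of 57, against 1933 bases and 209 counts for the other 137.

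Zeb2os had 1270.8, 539.6 and 924.7 TPM in the second table, against 129.73, 76.77 and 100.7 TPM in the gene table. Gm20234, tail-to-tail with Slfn2, had 447.7, 230.5 and 355.5 TPM in the second table, against 53.8, 26.25 and 41.31 TPM in the gene table. In both genes the tables ranked the libraries alike. For Zeb2os, 81.4% of the second table's TPM belonged to 1 transcript typed as miscellaneous RNA, at a mean of 741.9 TPM there and listed at 0 in the first transcript table. Its antisense transcripts summed to 169.9 TPM in the second table, against 102.4 TPM in the first. The widest upward gaps were those of 1700058P15Rik in Vasp (mean 114 TPM in the second table, against 8.57 TPM in the gene table), Gm31172 in Irf2 (143 against 11.1 TPM) and Gm43964 in Irak2 (144 against 11.9 TPM). All 3 have under 500 exonic bases, all of them in opposite-strand introns. The widest downward gaps were those of Gm26716 in Sdc3 (1.12 against 30.1 TPM) and Gm17139 in Arel1 (0.371 against 11.1 TPM), whose exonic bases all face exons of the other strand, and Gm13966 in Fmn1 (4.84 against 7.58 TPM). Zfas1, at 63.6 against 86.9 TPM, and AC119228.1, at 254 against 276 TPM, differed far less.

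**Figure D5:**
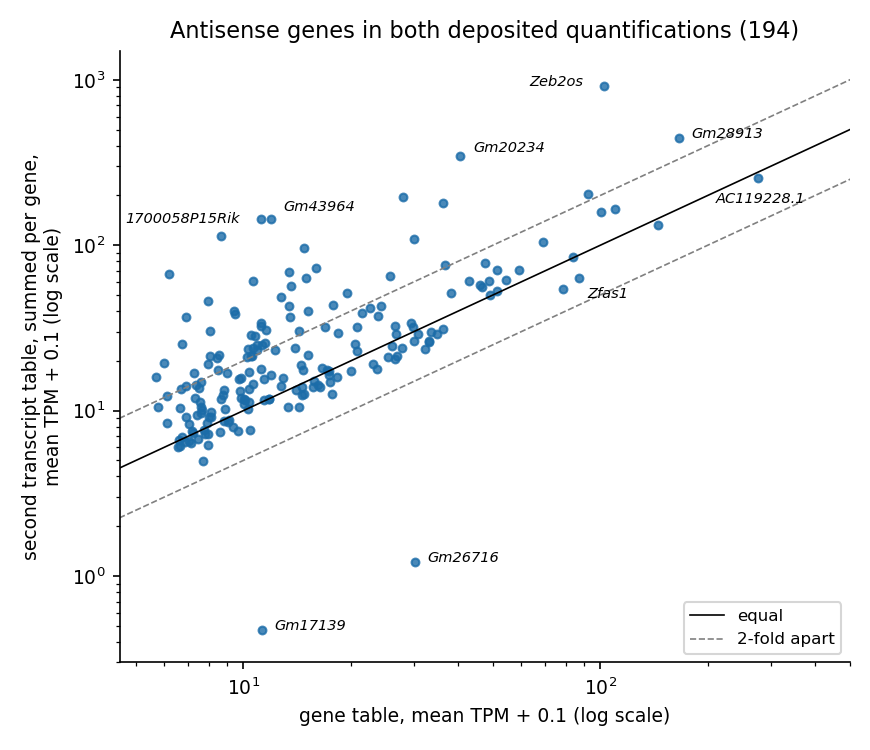
Mean TPM + 0.1 in the second transcript table, summed per gene (vertical, log scale), against the gene table (horizontal, log scale) for the 194 antisense genes. The solid line marks equal values and the dashed lines a 2-fold difference; 57 genes lie above the upper dashed line, and Gm26716 and Gm17139 lie far below the lower one.

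Of the 194, 73 have more than 1 annotated transcript, with Gm26885, head-to-head with the kinase gene Pim1, having the most at 20. The same transcript led in both transcript tables for 53 of the 73, and in 24 the leading transcript of the first table held over 90% of the gene's TPM. In Gm26885 a single transcript held 99.4% of the TPM in the first transcript table, and another led the second with 47.5%. The leading transcript of Tug1 held 26.6% in the first table and a different one held 49.5% in the second. Airn kept the same leading transcript, at 43.5% in the first table and 38.8% in the second.

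Values close to the 5 TPM rule show how narrow it is. Just inside were Gm26542 (5.43, 5.03 and 6.31 TPM), 4930512H18Rik (10.68, 7.3 and 5.03 TPM) and Gm41077 (7.15, 5.07 and 8.91 TPM). Just outside were D330041H03Rik (4.98, 6.71 and 6.8 TPM), Gm10603 (5.69, 5.9 and 4.98 TPM) and Gm28180 (8.6, 6.04 and 4.93 TPM). In each gene the range over libraries was wider than the distance of its lowest library from the threshold, and that lowest value is what these genes were picked on.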

How the data were processed

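Chromatin-fraction total RNA of 3 macrophage replicates was measured by RNA-seq. Per the file headers and the text files beside them, the authors deposited expected counts and TPM per gene and per transcript on mm10 with annotation release M21, in tables of 2 column layouts. Tool names, versions and strand setting were not given in the sources used here. Rows naming no gene held 0.401% to 1.04% of counts and were left out of the spread.

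Antisense genes were chosen by transcript type and gene-table TPM. Positions came from GENCODE M21 (GRCm38), the annotation the files name, and promoter sequences from RefSeq (GRCm38.p6). Members, lists and named genes were chosen with earlier results of these data known, and the positional shares, deviations and printed promoters after values were seen. Named genes were the 12 highest means, the extremes of partner ratio (4 each way), of spread (4 each way) and of table gap (3 each way), list partners, opposite-strand names and threshold neighbours; Tug1, Airn, Gt(ROSA)26Sor, Gm20234, Gm26885 and genes sharing Lrmda or Arhgap10 were added after their values were seen. Sense partners were tested above 1 TPM with limma 3.58.1 on log2(TPM + 0.1), over all genes with a nonzero value. Expected counts were rounded, filtered and TMM-scaled in edgeR 4.0.16 (common biological coefficient of variation 0.219). P-values measure only the spread between these 3 samples, which may be technical.

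Alternatives changed the TPM rule, pseudocount, filter, floor, table, scaling (DESeq2 1.42.0) and partner rule, and left out each replicate. On simulated data (22324 genes, biological coefficient of variation 0.3), 50 genes were set at each of 4 levels. The test called 2% of those at 1 TPM, 76% at 2 TPM and 100% at 4 and 8 TPM. The set genes were drawn from those above a minimum mean count, so the rates may not hold for genes with fewer counts. In the spread step (13948 genes) the coefficient of 0.3 was estimated as 0.294. A count of 0 allows up to 3 counts, or 0.164 to 0.242 CPM, for counting error only.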

Additional observations from a re-analysis of the deposited data

How the results depend on the processing

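The membership count, 194, was 432 at a TPM minimum of 2, 92 at a minimum of 10 and 608 in the second transcript table, and 209 to 230 without 1 replicate. Sense partners above 1 TPM, 159 of 168 as reported, numbered 159 to 164 under the alternatives that kept this floor. With a floor of 5 TPM, sense partners fell to 152, partners of the other antisense genes to 696 and all genes to 7051. In the second table all genes were 19775. The partners of others numbered 1013 to 1032 and all genes 11900 to 11961 with a replicate left out. The median log2 ratio to the partner was -1.61 in the second table, -3.31 on CPM, which is not corrected for length, and -1.87 to -1.77 without 1 replicate. The median spread, 0.289, was 0.187 without replicate 1 and up to 0.303 without replicate 3. Over all alternatives run, the shift of the antisense genes was 0.24 to 0.33 in replicate 1 and -0.33 to -0.10 in replicate 2, but in replicate 3 it changed sign, 0.10 without replicate 1 and -0.30 without replicate 2. Starts within 1 kb of a protein-coding start numbered 37 at 500 bases and 61 at 2 kb. Of 50 named levels, 37 moved by more than their SD in the second table, 34 of the 50 being higher there; with 3 libraries, leaving 1 out cannot move a mean that far, so those runs say nothing of stability. The cause was not tested. No paired analysis was possible because there is 1 group. Low counts limit 20 of the 194, whose lowest library had under 30.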
